A study of Mus musculus with 18 samples.

Results

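The histone genes of mouse thymocytes form the subject here: 82 of the 22619 genes in the deposited count table, chosen by their symbols in the deposited tables. Of these, 67 carry the names Hist1 to Hist4 and are called cluster genes below, and 15 are variants named H2af, H3f3 or H1f. The cluster genes comprise 6 H1, 18 H2A, 18 H2B, 12 H3 and 13 H4 genes, with 54 on chromosome 13, 10 on chromosome 3, 2 on chromosome 11 and 1 on chromosome 6. RNA was sequenced from sorted DN3 cells, the thymocyte stage that carries neither CD4 nor CD8 and rearranges the T-cell receptor beta gene, and from sorted DP cells, in which CD4 and CD8 are present together. All 18 libraries came from wild-type thymi, 28 days after grafting. Turnover is represented by 4 libraries of DN3 cells and 4 of DP cells, and autonomy by 5 of each, which makes 4 groups. In thymus grafting, turnover describes a graft whose thymocytes are replaced by progenitors from the host, and autonomy a graft that maintains its own thymocytes without them. The sources used here do not give host genotype, strain, sex or age, nor whether the libraries of a group came from different animals. The p-values therefore refer to variation among libraries, which may be technical. The comparisons asked how histone transcripts differ between the conditions within each stage, and between the stages within each condition.

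Histones package DNA into nucleosomes, which hold H2A, H2B, H3 and H4 and are joined by the linker histone H1. Cluster genes are switched on in S phase by NPAT-dependent transcription, and most of their transcripts end in a conserved stem-loop bound by SLBP in place of a poly(A) tail. Variant genes such as H2afz and H3f3b are transcribed outside S phase too, carry poly(A) tails and supply histones that are exchanged into chromatin independently of replication. RNA was captured here on oligo-dT beads, which bind poly(A) tails and so favour polyadenylated transcripts. The levels of cluster genes may therefore describe mainly that share of their transcripts and not all of it. Poly(A) tails were not measured.

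The stem-loop, a stem of 6 base pairs with a loop of 4 bases, was searched for after the stop codon of the annotated transcripts. It was found in 46 of the 67 cluster genes and in 1 variant, H2afx, in 9 forms. Of these, 26 members held the first form below. The stem is in capitals and the loop in lower case, in DNA letters, and the positions are those of GRCm38. The genes shown are those on which the results turn, and the 3 forms among them differ in the stem or loop.
Hist3h2ba stem-loop, chr11:58949349-58949364, + strand: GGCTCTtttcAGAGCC
Hist3h2a stem-loop, chr11:58955172-58955187, + strand: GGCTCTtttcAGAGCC
Hist1h2ae stem-loop, chr13:23570668-23570683, - strand: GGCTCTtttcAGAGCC
Hist1h4i stem-loop, chr13:22040966-22040981, - strand: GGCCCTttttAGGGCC
H2afx stem-loop, chr9:44335240-44335255, + strand: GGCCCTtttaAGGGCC
After the stem-loop, the annotated transcript of Hist3h2a continued for 1643 bases, that of H2afx for 822, that of Hist1h4i for 330, that of Hist3h2ba for 169 and that of Hist1h2ae for 151. Hist1h2ab, with 11 bases, and Hist1h2ag, with 23, were annotated as ending just after it. Of the 46 cluster genes with a stem-loop, 18 also had a poly(A) signal in an annotated 3' UTR, and 5 of these 18 had a mean over 10 CPM. CPM are counts per 1000000 reads of a library, scaled with TMM factors. Of the 28 with a stem-loop and no such signal, 1 had a mean over 10 CPM. The medians went the other way, at 1.26 CPM for the 18 and 1.69 CPM for the 28. Per kb of annotated exon they were 0.705 and 3.24 CPM. The remaining 21 cluster genes had no stem-loop in the annotation, and 17 of these had no poly(A) signal there either. Some of them, such as Hist1h1b, are annotated with no 3' UTR, so a stem-loop could not be found.

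Promoters were read for 74 of the 82 members from RefSeq (GRCm38.p6), 250 bases before each annotated start, in 61 cluster genes and 13 variants. The letters CCAAT, on either strand, stood in 82.0% of the cluster promoters, in 61.5% of the variant promoters and in 34.5% of all 27025 promoters searched. TATAAA stood in 47.5% of the cluster promoters, 7.69% of the variant promoters and 13.0% of all. The octamer ATTTGCAT, the letters bound by POU factors such as Oct-1, stood in 21.3% of the cluster promoters, in 7.69% of the variant promoters (1 of 13) and in 1.61% of all. The E2F-type letters TTTNNCGC stood in 21.3% of the cluster promoters, in 0 of the 13 variant promoters and in 4.39% of all. The promoters of Hist3h2ba and Hist3h2a are shown because these genes moved together, and that of H2afz because it had the smallest p among the variants in DN3. Capitals mark matches to the 4 motifs on either strand, which do not overlap each other in these windows.
Hist3h2ba promoter, chr11:58948661-58948910, + strand: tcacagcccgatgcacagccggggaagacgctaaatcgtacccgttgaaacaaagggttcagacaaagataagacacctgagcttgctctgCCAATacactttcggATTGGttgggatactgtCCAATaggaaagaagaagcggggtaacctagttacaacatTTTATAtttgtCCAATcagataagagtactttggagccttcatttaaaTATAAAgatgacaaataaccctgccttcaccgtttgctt
Hist3h2a promoter, chr11:58954435-58954684, + strand: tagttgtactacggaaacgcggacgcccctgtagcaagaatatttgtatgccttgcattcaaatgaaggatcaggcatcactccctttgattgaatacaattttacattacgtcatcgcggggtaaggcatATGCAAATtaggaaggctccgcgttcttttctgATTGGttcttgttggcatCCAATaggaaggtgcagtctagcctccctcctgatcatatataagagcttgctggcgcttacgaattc
H2afz promoter, chr3:137864237-137864486, + strand: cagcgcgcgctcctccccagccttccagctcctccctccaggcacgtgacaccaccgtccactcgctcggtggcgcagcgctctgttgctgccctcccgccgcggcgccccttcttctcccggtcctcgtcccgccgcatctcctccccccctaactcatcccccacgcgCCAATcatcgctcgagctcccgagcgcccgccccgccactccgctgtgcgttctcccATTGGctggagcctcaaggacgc
The Hist3h2ba window held 4 copies of CCAAT and 2 of TATAAA. The Hist3h2a window held 2 copies of CCAAT and 1 octamer, and the H2afz window 2 copies of CCAAT. The pair lies on the same strand of chromosome 11, with 5151 bases between the end of Hist3h2ba and the start of Hist3h2a. Matches to letters describe these windows and are not binding sites.

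Total counts ran from 5032273 to 24191044 per library, and histone genes took 0.346% to 0.552% of them. The cluster genes alone took 0.0183% to 0.0719%. Markers followed the labels: Il2ra, the IL-2 receptor alpha chain of DN3 cells, ran from 256 to 632 CPM in DN3 libraries and from 1.25 to 41.2 CPM in DP libraries, and Cd4 from 646 to 894 CPM in DP libraries. DN3 turnover library RP1141B stood apart, with 135 CPM of Cd4 where the other 3 DN3 turnover libraries had 0.421 to 1.96, and 385 CPM of Cd8a where they had 2.53 to 7.34. The 5 DN3 autonomy libraries held 39.0 to 71.6 CPM of Cd8a. Calls that changed without RP1141B are given with and without it. The 9 macrophage and dendritic markers summed to 42.1 to 55.2 CPM in DN3 turnover, 5.58 to 16.2 in DN3 autonomy, 11.1 to 27.9 in DP turnover and 17.8 to 147 in DP autonomy. Of the 6 tested in DP, 1 was called higher in autonomy, with a median log2 change of 2.21, where 0.861% of all genes were higher. In autonomy, 4 of 7 tested were higher in DP than in DN3, where 23.7% of all genes were. Of the 2 tested in DN3, 2 were lower in autonomy, where 8.35% of all genes were lower. The 6 B-cell markers summed to 52.3 to 91.5, 13.5 to 42.2, 35.2 to 66.8 and 24.7 to 50.5 CPM in the same order, nearly all of it Cd79b, with Ms4a1 at 0 in every group. The 7 NK markers summed to 1225 to 1702, 1835 to 2523, 169 to 457 and 102 to 213 CPM, mostly Gzma, with Ncr1 at a mean of 0.23 CPM or less. The 5 thymic epithelial markers summed to 90.1 to 113, 28.8 to 83.3, 4.65 to 19.1 and 2.84 to 10.3 CPM, mostly Epcam, with Krt5 at 0. The 7 erythroid and platelet markers summed to at most 8.99 CPM in any library. The part of these cells in the histone results was not tested, and in bulk RNA fewer cells of a type and less RNA per cell cannot be told apart.

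Of the 82 members, 76 had reads, 40 of them in all 18 libraries, and 6 had none: Hist1h1t, Hist1h2ba, Hist1h2br, H1foo, H2afb1 and H2afb2. Of all members, 31 averaged under 1 CPM, 16 over 10 CPM and 6 over 100 CPM. Those over 100 CPM were the variants H3f3b, H2afz, H2afv, H3f3a, H2afy and H2afx. Compared per kb of annotated exon, H2afz, which encodes H2A.Z, was highest with a mean of 695 CPM per kb over the 18 libraries. H3f3b, one of the genes for H3.3, followed with 553 and H2afv, the other H2A.Z gene, with 222. The highest cluster gene was Hist3h2ba, an H2B gene, with 147 CPM per kb, ahead of its neighbour Hist3h2a with 38.7 and Hist1h2ae, an H2A gene of the large Hist1 cluster, with 35.9. Hist4h4 averaged 0.249 to 0.446 CPM per kb over the 4 groups. Of the members, 34 share over 50% of their 50-base words with another gene's transcripts, so their values are uncertain where the counting split or dropped shared reads. Among them are Hist1h2ag (78.9%), Hist1h2bk (74.2%), Hist1h2ab (58.0%), Hist2h2ac (55.0%) and Hist1h3g (54.1%), which are called in at least 1 comparison below. The sources used here do not state whether reads were counted by strand.

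**Figure D1:**
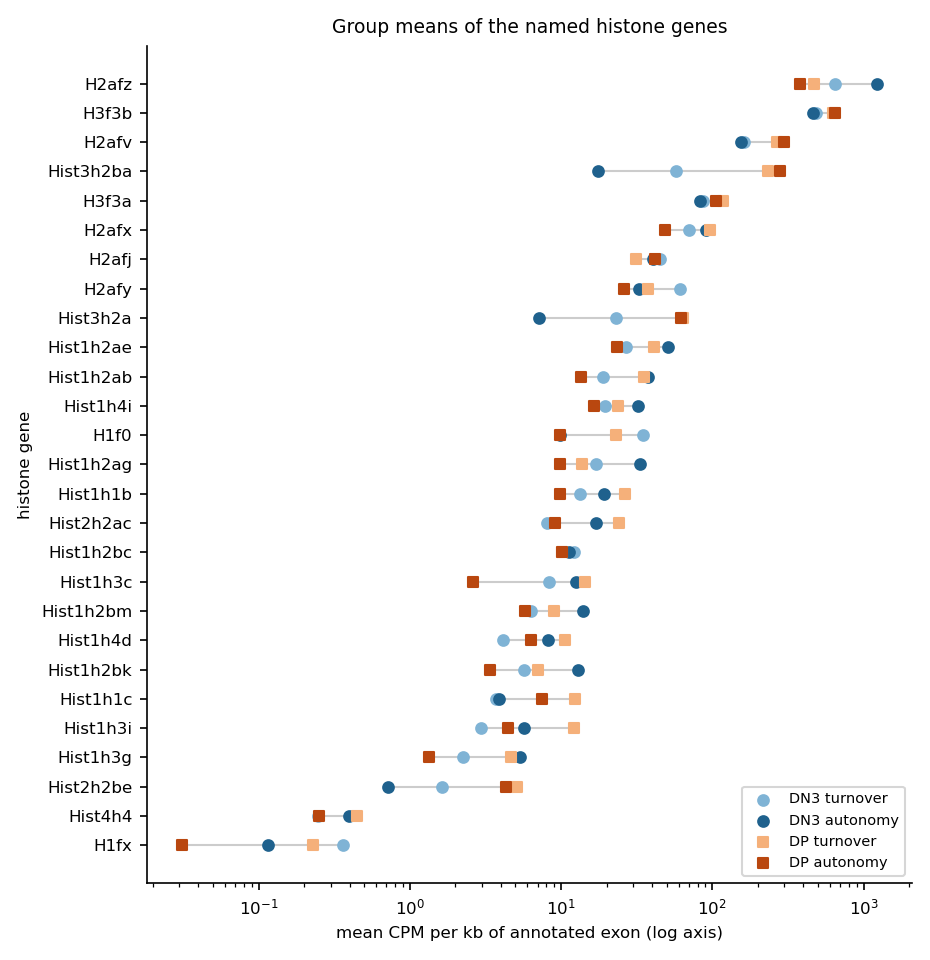
Mean CPM per kb of annotated exon (log axis) of 27 named histone genes in the 4 groups, with 1 point per group and a grey line over their range; H2afy2 is left out because it was at 0 in all libraries of 2 groups. H2afz and H3f3b lead, and Hist3h2ba and Hist3h2a lie far apart between DN3 and DP.

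In DN3 cells, H2afz was the member with the smallest p. Its 4 turnover libraries held 1051, 1056, 1310 and 1153 CPM, and its 5 autonomy libraries 2049, 2509, 1794, 2143 and 2447 CPM. Every autonomy library was above every turnover library. H2A.Z marks nucleosomes beside promoters, where the SRCAP and p400 complexes exchange it for H2A. H2afz rose 1.91-fold (log2 0.93, SE 0.15, adjusted p = 0.00228, edgeR quasi-likelihood test), from 1143 ± 121 (SD, n = 4) to 2188 ± 294 CPM (SD, n = 5). In DP cells it held 1007, 869, 740 and 725 CPM in turnover and 595, 845, 616, 542 and 765 CPM in autonomy, and these groups overlapped. The DP difference was not called (log2 −0.32, SE 0.15, adjusted p = 0.298). The autonomy effect differed between the stages, with a difference of −1.25 (log2, DP minus DN3, SE 0.21, adjusted p = 0.00137). H2afv, which encodes the sister protein H2A.Z.2, was not called in DN3 (log2 −0.08, SE 0.19, adjusted p = 0.814) or DP (log2 0.14, SE 0.18, adjusted p = 0.765).

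H2afx encodes H2A.X, the variant that is phosphorylated around DNA breaks, among them those made by Rag during receptor rearrangement. In DP turnover its libraries held 151, 145, 111 and 128 CPM, and in DP autonomy 48.8, 65.1, 81.1, 61.9 and 80.9 CPM. No autonomy library reached the lowest turnover library. H2afx fell 1.99-fold in DP (SE 0.20 on the log2 scale, adjusted p = 0.0271), from 134 ± 18.4 (SD, n = 4) to 67.6 ± 13.7 CPM (SD, n = 5). It was the only member called in DP; leaving out 1 library gave adjusted p from 0.0231 to 0.0808, above the threshold without turnover RP1140A, RP1140B or RP1141B or autonomy RP1133, RP1135 or RP1137. In DN3 the turnover libraries held 96.5, 96.9, 95.5 and 102 CPM and the autonomy libraries 118, 121, 166, 113 and 109 CPM. These groups did not overlap, but the DN3 difference was not called (log2 0.35, SE 0.16, adjusted p = 0.141). The autonomy effect differed between the stages, with a difference of −1.35 (log2, SE 0.24, adjusted p = 0.0024). With the A and B libraries of a number summed, the difference of H2afx had an adjusted p of 0.0536 and the DP change one of 0.152.

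The Hist3 pair moved the other way in DN3. Hist3h2a, an H2A gene, held 32.3, 41.2, 42.8 and 83.3 CPM in DN3 turnover and 12.4, 20.3, 20.7, 11.97 and 11.6 CPM in DN3 autonomy. Hist3h2ba held 21.9, 17.7, 31.0 and 70.6 CPM in turnover and 10.7, 10.1, 15.5, 7.16 and 10.1 CPM in autonomy. In both genes the highest library was RP1141B, which carries DP transcripts, and the groups did not overlap with or without it. Hist3h2a fell 3.26-fold (log2 −1.70, SE 0.31, adjusted p = 0.00385) and Hist3h2ba 3.31-fold (log2 −1.73, SE 0.38, adjusted p = 0.011). Without RP1141B the changes were −1.34 (adjusted p = 0.0105) and −1.14 (adjusted p = 0.0296) on the log2 scale, and the DN3 turnover means went from 49.9 to 38.8 and from 35.3 to 23.5 CPM. In DP, Hist3h2a had 138 ± 20.99 CPM in turnover (SD, n = 4) and 133 ± 26.3 in autonomy (SD, n = 5), with log2 −0.06 (SE 0.18, adjusted p = 0.904). Hist3h2ba had 143 ± 32.9 (SD, n = 4) and 173 ± 43.5 CPM (SD, n = 5) there, with log2 0.26 (SE 0.22, adjusted p = 0.612).

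The autonomy effect on the Hist3 pair differed between the stages, by 1.65 for Hist3h2a (log2, SE 0.37, adjusted p = 0.0116) and 1.99 for Hist3h2ba (log2, SE 0.47, adjusted p = 0.0156). Without RP1141B the differences were 1.27 (adjusted p = 0.0273) and 1.39 (adjusted p = 0.0362), and with A and B libraries summed neither was called (adjusted p = 0.0666 and 0.0511). Exons of Trim17 on the same strand cover 33.0% of the Hist3h2a exon, so reads there could belong to either gene. Trim17 itself was counted at 0.979 to 1.82 CPM in DN3 turnover, 0.298 to 1.06 in DN3 autonomy, 0.523 to 4.68 in DP turnover and at most 2.55 in DP autonomy.

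H1f0 encodes the linker histone H1.0, known to accumulate in cells that divide slowly or are differentiated. DN3 turnover libraries held 47.8, 37.9, 71.3 and 130 CPM, and DN3 autonomy libraries 15.5, 6.54, 15.98, 14.4 and 48.8 CPM. The groups overlapped through autonomy library RP1138, at 48.8 CPM, and the highest value was again that of RP1141B. H1f0 fell by 1.82 on the log2 scale (SE 0.49, adjusted p = 0.027). Without RP1141B the change was −1.36 (adjusted p = 0.0819), and the call was also lost without turnover RP1141A or autonomy RP1133 or RP1137, and with A and B libraries summed (adjusted p = 0.0986). In DP, H1f0 averaged 47.8 ± 21.2 CPM in turnover (SD, n = 4) and 20.3 ± 15.2 in autonomy (SD, n = 5), a difference that was not called (log2 −1.24, SE 0.50, adjusted p = 0.22).

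**Figure D2:**
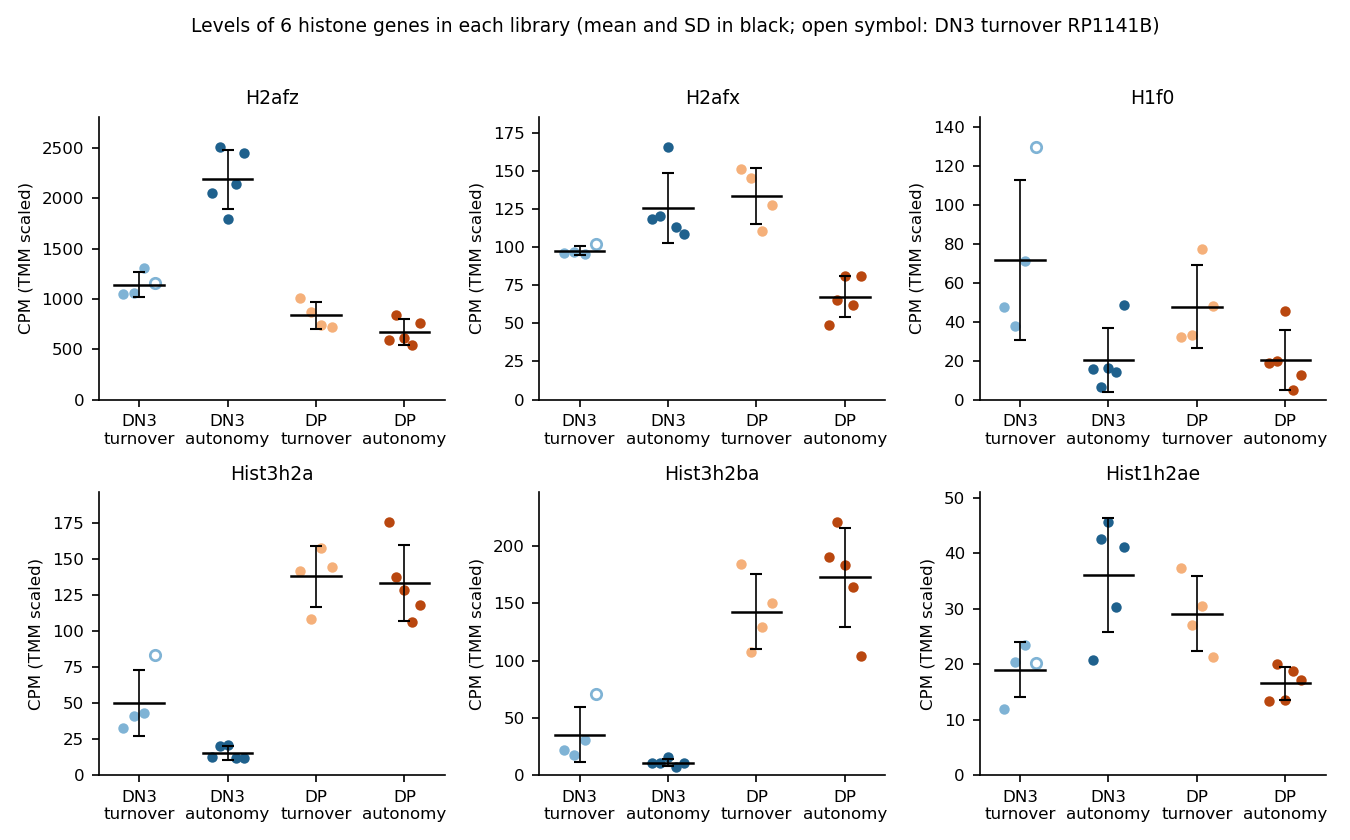
CPM of H2afz, H2afx, H1f0, Hist3h2a, Hist3h2ba and Hist1h2ae in each of the 18 libraries, with the mean and SD of each group in black and DN3 turnover library RP1141B as an open symbol. H2afz is highest in DN3 autonomy, the Hist3 pair is high in both DP groups and lowest in DN3 autonomy, and Hist1h2ae is higher in DN3 autonomy and DP turnover than in the other groups.

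The summed level of the 54 Hist1 genes was higher in autonomy than in turnover in most DN3 libraries and lower in every DP library. It was 114, 196, 161 and 129 CPM in the DN3 turnover libraries and 193, 301, 284, 230 and 261 CPM in the DN3 autonomy libraries, which overlapped by 1 library on each side. In DP it was 292, 239, 275 and 201 CPM in turnover and 125, 153, 142, 153 and 110 CPM in autonomy, with no overlap. The Hist3 pair followed another order, with a mean sum of 85.2 ± 46.6 CPM in DN3 turnover (SD, n = 4), 26.1 ± 7.05 in DN3 autonomy (SD, n = 5), 281 ± 46.7 in DP turnover (SD, n = 4) and 306 ± 60.6 in DP autonomy (SD, n = 5). The sum of the 10 Hist2 genes on chromosome 3 averaged 14.0 ± 0.8287, 19.6 ± 6.97, 38.0 ± 9.09 and 20.8 ± 3.82 CPM in the same order. These sums are given as levels, with no test.

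**Figure D3:**
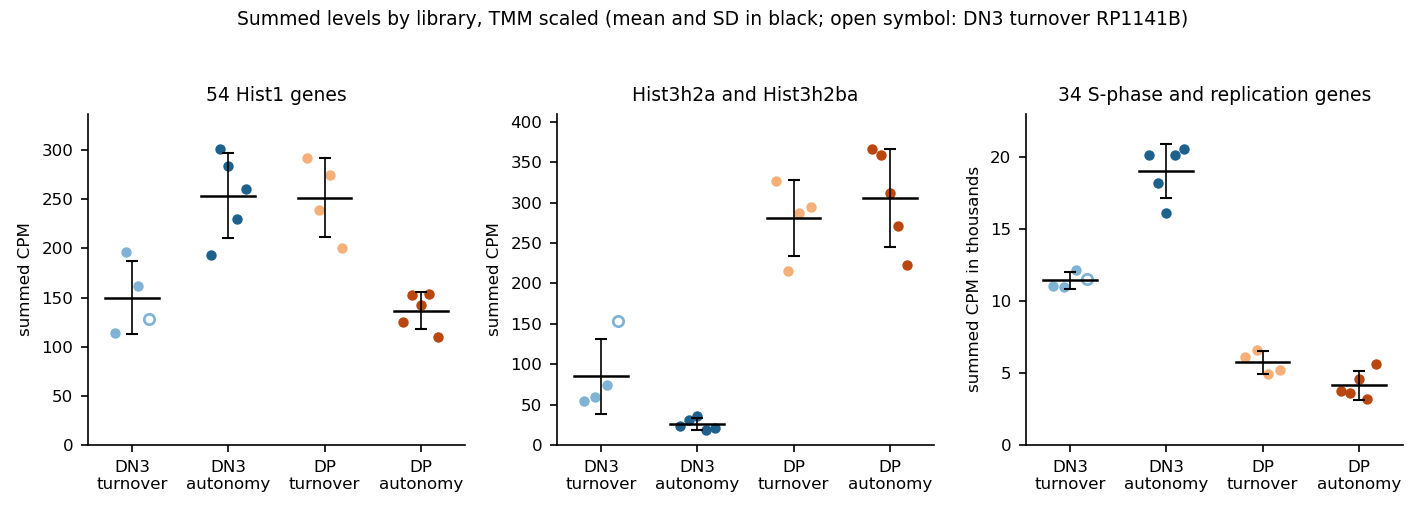
Summed CPM of the 54 Hist1 genes, of Hist3h2a with Hist3h2ba, and of 34 S-phase and replication genes in each library, each panel with its own axis, with the mean and SD of each group in black and RP1141B as an open symbol. The Hist1 sum is low in DN3 turnover and DP autonomy, the Hist3 sum separates DP from DN3, and the S-phase sum is highest in DN3 autonomy and lower in both DP groups.

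Of the 82 members, 58 passed the filter on low counts in DN3 and were tested, and 51 in DP. In DN3, 3 were called higher in autonomy, H2afz, Hist1h2ae and Hist1h2ag, where 6.53% of all 10766 genes tested were higher, and 3 were called lower, Hist3h2a, Hist3h2ba and H1f0, where 8.35% of all were lower. The members' shares, 5.17% in each direction, are near these backgrounds. At an unadjusted p under 0.05, 16 of the 58 were higher and 4 lower, against 14.6% and 16.8% of all genes. In DP, H2afx alone was called lower and 0 members were called higher, where 0.861% of all 10339 genes were called in each direction. At an unadjusted p under 0.05, 0 members were higher and 10 lower in DP, against 8.67% and 8.43% of all genes. DESeq2 also called 0 members higher in DP, where it called 3.86% of all genes higher, and it called 3 lower, H2afx, Hist1h1b and Hist1h3c, where it called 3.71% of all lower. In DN3 it called 9 higher, among them Hist1h2ab, Hist1h2bm and Hist1h4i beside the 3 above, and 4 lower, adding H2afy, where it called 10.7% of all genes higher and 11.6% lower. Its counts over all genes were thus larger too. DESeq2 was fitted to the same 58 members in DN3 and 51 in DP, though some may lack an adjusted p from it. In the authors' deposited table, 8 of 65 members with an adjusted p were higher and 4 lower in DN3, where 8.96% of all genes with an adjusted p were higher and 10.3% lower. In the same authors' deposited table for DP, 0 of 60 were higher and 5 lower, where 3.93% of all were higher and 3.73% lower.

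Single cluster genes were low and noisy, and few passed the test. Hist1h2ae, the most abundant Hist1 gene, held 11.9, 20.4, 23.5 and 20.2 CPM in DN3 turnover and 20.8, 42.6, 45.6, 30.3 and 41.1 CPM in DN3 autonomy. It rose by 0.92 (log2, SE 0.28, adjusted p = 0.044), though autonomy library RP1133 lay within the turnover range. Leaving out 1 library gave it adjusted p from 0.0214 to 0.125, above the threshold without turnover RP1140A, RP1140B or RP1141B or autonomy RP1134, RP1135, RP1137 or RP1138, and summing A and B libraries gave 0.156. Hist1h2ag, another H2A gene, rose by 0.95 (log2, SE 0.30, adjusted p = 0.0495) with no overlap. Its call was lost without turnover RP1140A, RP1140B or RP1141A or autonomy RP1134, RP1135, RP1137 or RP1138, with adjusted p up to 0.136, and also when all 18 libraries were fitted together, with no filter on low counts, and with A and B libraries summed (adjusted p = 0.152). In DP, Hist1h2ae had 29.1 ± 6.77 CPM in turnover (SD, n = 4) and 16.6 ± 3.00 in autonomy (SD, n = 5), not called (log2 −0.82, SE 0.30, adjusted p = 0.175).

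The direction of the group means was counted over all cluster genes with reads, with no filter. In DN3, 55 of 64 had the higher mean in autonomy, and 52 of 64 without TMM factors or without RP1141B. In DP, 6 of 64 had the higher mean in autonomy and 58 the lower. Among the variants with reads, 2 of 11 were higher in DN3 autonomy, or 5 of 11 without RP1141B, and 4 of 11 in DP autonomy. The median log2 change of the 50 cluster genes tested in DN3 was 0.73, beside −0.05 for all genes tested, and that of the 43 tested in DP was −0.80, beside −0.02. Many of these genes share sequence and reads, so they are not independent of each other. Signs were counted for members alone, so no share of all genes stands beside these counts. Of 50 members tested in both stages, 40 had a positive log2 change in DN3 and a negative one in DP, 0 were positive in both, 5 were negative in both, and 5 were negative in DN3 and positive in DP.

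**Figure D4:**
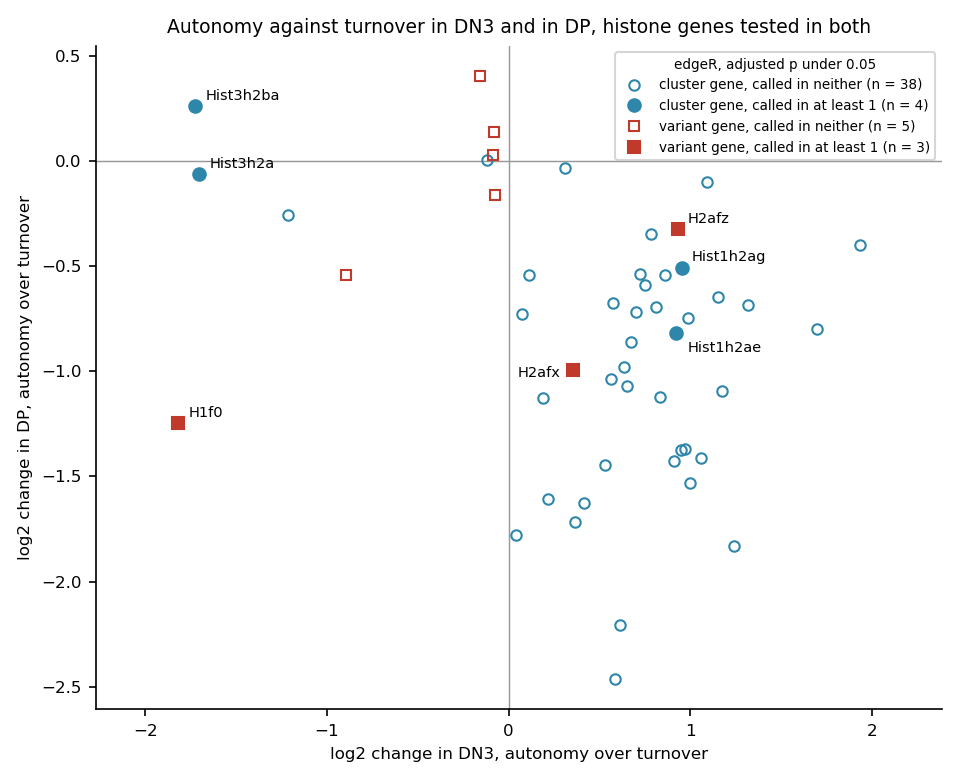
Log2 change of autonomy over turnover in DN3 (x axis) and in DP (y axis) for the 50 histone genes tested in both, with circles for cluster genes, squares for variants and filled symbols for those called in at least 1 stage. Most circles lie at the lower right, with a positive DN3 and a negative DP change, and Hist3h2a and Hist3h2ba lie apart at the left.

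By family, the cluster H2A genes had 14 tested members in DN3, of which 2 were higher, Hist1h2ae and Hist1h2ag, and 1 lower, Hist3h2a, with a median log2 change of 0.96. Of all genes tested in DN3, 6.53% were called higher and 8.35% lower. The H2B genes had 12 tested, 0 higher and 1 lower, Hist3h2ba, with a median of 0.29. Among the 5 H1, 8 H3 and 11 H4 genes tested in DN3, edgeR called 0, with medians of 0.63, 0.76 and 0.72. Hist1h4i, the H4 gene with the highest mean, had 14.1 ± 2.80 CPM in DN3 turnover (SD, n = 4) and 23.4 ± 3.81 in autonomy (SD, n = 5), with no overlap, and just missed the threshold (log2 0.72, SE 0.23, adjusted p = 0.0552). In DP all of these families had negative medians, from −0.66 for H2B to −1.28 for H3. There 0 cluster genes were called, where 0.861% of all genes were called in each direction. At an unadjusted p under 0.05, 7 of 43 cluster genes were lower, against 8.43% of all genes. Hist1h3c, an H3 gene, had 9.09 ± 1.72 CPM in DP turnover (SD, n = 4) and 1.64 ± 1.39 in autonomy (SD, n = 5), with no overlap (log2 −2.46, SE 0.92, adjusted p = 0.183).

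The difference of the autonomy effect between the stages was called for 7 of 61 members tested in the fit of all libraries. Higher in DP than in DN3 were the 2 Hist3 genes, where 2.88% of all 11521 genes were called. Lower were 5, H2afz, H2afx, Hist1h2ae, Hist1h1b and Hist2h2ac, where 2.61% of all genes were called. Hist1h1b, the gene for the linker histone H1.5, held 7.35, 17.6, 7.16 and 7.38 CPM in DN3 turnover, 9.03, 16.9, 12.6, 13.7 and 19.1 in DN3 autonomy, 18.2, 28.1, 20.5 and 12.3 in DP turnover and 8.14, 11.4, 6.34, 6.10 and 4.68 in DP autonomy. Its autonomy effects were 0.53 in DN3 and −1.44 in DP, a difference of −1.97 (log2, SE 0.55, adjusted p = 0.0424). With 1 library left out the call was kept only without DN3 turnover RP1140B, DN3 autonomy RP1133, DP turnover RP1141B or DP autonomy RP1135, and the adjusted p reached 0.1002 otherwise. For Hist2h2ac, an H2A gene, the effects were 1.06 and −1.41, a difference of −2.47 (log2, SE 0.66, adjusted p = 0.0322), and without RP1141B this difference had an adjusted p of 0.0665. It was also lost without DN3 turnover RP1140A, DN3 autonomy RP1134, DP turnover RP1140A or RP1141A, or DP autonomy RP1136, with adjusted p up to 0.0794. Hist1h2ae differed by −1.73 (log2, SE 0.40, adjusted p = 0.0146). With A and B libraries summed, H2afz alone of the 7 was called.

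Between the stages in turnover, 6 of 61 members were higher in DP, where 15.8% of all genes were higher, and 1 was lower, where 19.1% of all were lower. Higher were Hist3h2a, Hist3h2ba, H2afv, Hist1h1c, Hist1h4d and Hist2h2ac. Hist3h2ba was 4.05-fold higher in DP (log2 2.02, SE 0.35, adjusted p = 0.000191) and Hist3h2a 2.77-fold (log2 1.47, SE 0.28, adjusted p = 0.000369), and without RP1141B these became 2.63 and 1.86 on the log2 scale. Hist1h1c, the gene for H1.2, held 5.61, 6.29, 4.92 and 6.23 CPM in DN3 turnover and 25.5, 13.5, 19.3 and 18.5 CPM in DP turnover. It was higher in DP by 1.73 (log2, SE 0.47, adjusted p = 0.00696), with no overlap. H2afv had 265 ± 72.5 CPM in DN3 (SD, n = 4) and 440 ± 98.9 in DP (SD, n = 4), a difference of 0.73 (log2, SE 0.21, adjusted p = 0.011). H2afz was the one called lower, with a difference of −0.45 (log2, SE 0.16, adjusted p = 0.0303), with no overlap. The call was lost without DN3 turnover RP1141A or RP1141B, DN3 autonomy RP1133, RP1137 or RP1138, or DP turnover RP1140B, RP1141A or RP1141B, with adjusted p up to 0.121. Hist1h4d, an H4 gene, lost its call without DN3 turnover RP1140A or RP1141B or DP turnover RP1141A (adjusted p up to 0.0749), and Hist2h2ac without DN3 turnover RP1140A or DP turnover RP1140A (up to 0.0629). Without RP1141B, H3f3b was called higher in DP (log2 0.69, adjusted p = 0.00766, in place of 0.37 and 0.191) and H2afy lower (log2 −0.88, adjusted p = 0.0325, in place of −0.69 and 0.0909). With A and B libraries summed, the Hist3 pair was called and the other 5 were not, among them Hist1h1c (adjusted p = 0.12), H2afv (adjusted p = 0.0948) and H2afz (adjusted p = 0.195).

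In autonomy, 5 of 61 members were higher in DP, where 23.7% of all genes were higher, and 11 were lower, where 25.2% of all were lower. The Hist3 pair was furthest apart, with Hist3h2ba 16.1-fold higher in DP (log2 4.01, SE 0.35, adjusted p = 1.47e-08) and Hist3h2a 8.69-fold (log2 3.12, SE 0.26, adjusted p = 1.12e-08). Hist2h2be, an H2B gene with a long annotated 3' UTR and no stem-loop found, was higher by 2.61 (log2, SE 0.61, adjusted p = 0.0014), with 1.88 ± 1.88 CPM in DN3 (SD, n = 5) and 11.4 ± 3.62 in DP (SD, n = 5). H2afv was higher by 0.95 (adjusted p = 0.000332) and H3f3b by 0.48 (adjusted p = 0.0388) on the log2 scale. Of the 11 lower members, H2afz fell furthest in level, from 2188 ± 294 CPM in DN3 (SD, n = 5) to 673 ± 127 in DP (SD, n = 5), a log2 difference of −1.70 (SE 0.14, adjusted p = 1.07e-08). H2afx had a difference of −0.89 (log2, SE 0.16, adjusted p = 0.000131). The other 9 were Hist1 genes, Hist1h1b, Hist1h2ab, Hist1h2ae, Hist1h2ag, Hist1h2bk, Hist1h2bm, Hist1h3c, Hist1h3g and Hist1h4i, with log2 differences from −0.96 to −2.25. Under all 23 alternatives the calls of H2afz, H2afx, H2afv, Hist1h2ae, Hist1h2ag, Hist1h3c, Hist2h2be and the Hist3 pair were kept. With 1 library left out, H3f3b lost its call without DN3 autonomy RP1133, RP1134, RP1135 or RP1137 or DP autonomy RP1133, RP1135 or RP1136 (adjusted p up to 0.108). Hist1h1b lost it without DN3 autonomy RP1134, RP1137 or RP1138, DP turnover RP1140A, or DP autonomy RP1136, RP1137 or RP1138 (up to 0.11). Hist1h2ab lost it without DN3 autonomy RP1134 or DP autonomy RP1136 (up to 0.0582), and Hist1h2bm without DN3 autonomy RP1135, RP1137 or RP1138 or DP autonomy RP1135 or RP1138 (up to 0.0821). Hist1h3g kept it only without DN3 autonomy RP1134 or DP autonomy RP1133 or RP1138, with an adjusted p of up to 0.116 otherwise.

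Over the cluster genes with reads, 57 of 64 had the higher mean in DP in turnover, or 55 of 64 without RP1141B, and 9 of 64 in autonomy, or 16 of 64 without TMM factors. Of the 61 members tested, 44 had a positive log2 difference of DP over DN3 in turnover and a negative one in autonomy, 9 were positive in both, 7 negative in both and 1 negative in turnover and positive in autonomy. The median of the 53 cluster genes tested was 0.94 in turnover and −0.96 in autonomy, beside −0.04 and 0.00 for all genes tested. The turnover and autonomy sets have no library in common, but they were fitted in the same model. They also use the same 4 groups as the autonomy comparisons above, so these counts are not independent of those. Signs were again counted for members alone, with no share of all genes.

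**Figure D5:**
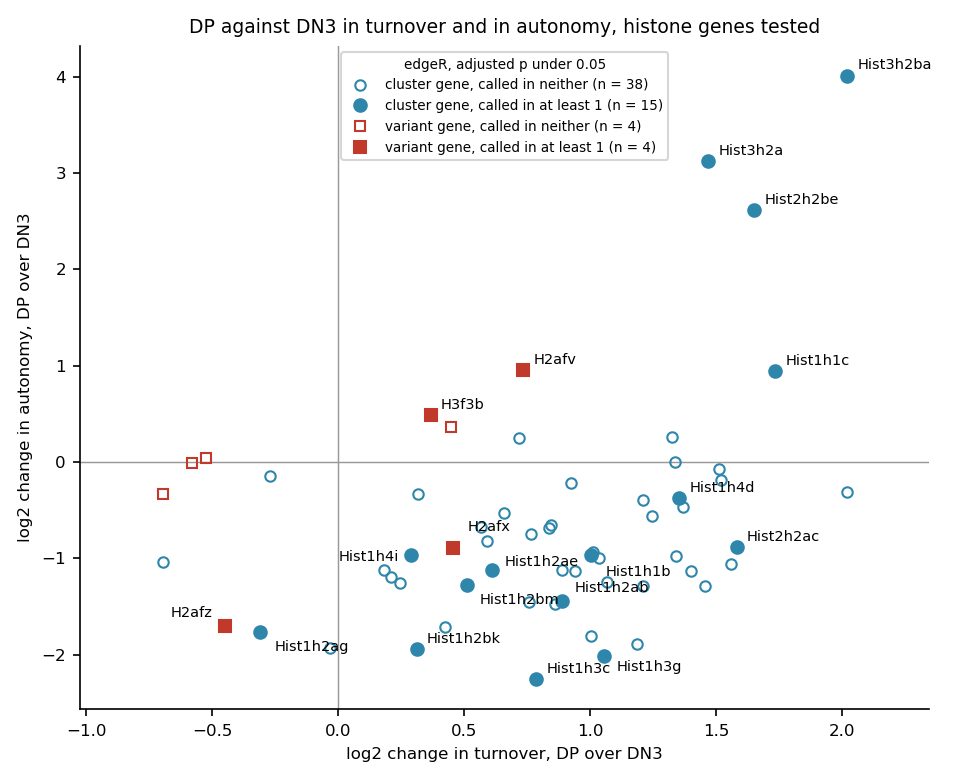
Log2 difference of DP over DN3 in turnover (x axis) and in autonomy (y axis) for the 61 histone genes tested, with circles for cluster genes, squares for variants and filled symbols for those called in at least 1 condition. Hist3h2ba, Hist3h2a and Hist2h2be lie high at the upper right, while most Hist1 genes lie at the lower right, with DP above DN3 in turnover and below it in autonomy.

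Several variants showed no called change between the conditions. H3f3b, at 1444 ± 559 CPM in DN3 turnover (SD, n = 4) and 1371 ± 213 in autonomy (SD, n = 5), had a log2 change of −0.08 (SE 0.22, adjusted p = 0.83), and in DP one of 0.03 (SE 0.14, adjusted p = 0.939). H3f3a, the other H3.3 gene, had −0.07 (SE 0.18) in DN3 and −0.16 (SE 0.13) in DP. H2afj, the gene for H2A.J, had −0.16 (SE 0.24) in DN3 and 0.41 (SE 0.22) in DP, on the log2 scale. H2afy, which encodes macroH2A1, a large H2A variant found on silent chromatin, held 276, 815, 356 and 218 CPM in DN3 turnover and 198 to 242 CPM in the 5 autonomy libraries, and was not called (log2 −0.89, SE 0.30, adjusted p = 0.0635). It was called lower by DESeq2, with A and B libraries summed, with no filter on low counts, and without RP1141B (log2 −1.10, adjusted p = 0.0251). Leaving out 1 library moved its log2 change between −1.10 and −0.35. H2afy2 and H1fx, at most 1.48 and 0.838 CPM in any library, were too low to be tested. Among cluster genes named in every case, Hist1h2bc, an H2B gene, had a log2 change of −0.12 (SE 0.33) in DN3 and 0.00 (SE 0.47) in DP.

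Most S-phase genes rose in DN3 autonomy. Of 34 S-phase and replication genes tested there, 30 rose and 0 fell, with a median log2 change of 0.76, where 6.53% of all genes rose and 8.35% fell. Dut, which keeps uracil out of DNA, rose by 1.18 (adjusted p = 0.000851), Ccne2, a cyclin of the G1 to S transition, by 1.29 (adjusted p = 0.00186) and Mcm5, a subunit of the replicative helicase, by 0.90 (adjusted p = 0.00186). In DP, 2 of 34 fell in autonomy and 0 rose, where 0.861% of all genes were called in each direction. Mcm6 fell by 0.81 (adjusted p = 0.0301) and Pold1, the catalytic subunit of DNA polymerase delta, by 1.34 (adjusted p = 0.0359). In either direction, 10 of 34 had an unadjusted p under 0.05, where 8.67% of all genes were higher and 8.43% lower. Between the stages, 28 of 34 were lower in DP in turnover and 34 of 34 in autonomy, with medians of −1.10 and −2.20, where 19.1% and 25.2% of all genes were lower. In turnover the cluster genes had a median of 0.94 in the same contrast. The summed level of the list had medians of 11295, 20116, 5672 and 3752 CPM in DN3 turnover, DN3 autonomy, DP turnover and DP autonomy.

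Of 25 genes for histone transcription and stem-loop processing, 5 rose and 1 fell in DN3 autonomy, beside the 6.53% and 8.35% of all genes. Slbp, the protein that binds the stem-loop, rose by 0.79 (log2, SE 0.19, adjusted p = 0.0168) and Snrpb, an Sm protein, by 0.61 (adjusted p = 0.0108), while Cstf2t, a cleavage factor, fell by 0.76 (adjusted p = 0.022). Npat, the coactivator of cluster genes, given here like Srcap and Ep400 for its role and not by the naming rule, was not called in DN3 (log2 0.25, SE 0.20, adjusted p = 0.437) or DP (log2 −0.38, SE 0.23, adjusted p = 0.442). In DP, 1 of 24 rose, Snrpd3, by 0.92 (adjusted p = 0.0198), and Slbp was not called (log2 −0.17, SE 0.22, adjusted p = 0.77). Of 37 histone chaperone and exchange genes, 9 rose and 1 fell in DN3 autonomy, beside the same shares of all genes. Among those that rose, Cenpa, the centromeric H3 variant, rose by 1.05 (adjusted p = 0.00171), Chaf1a, a subunit of the assembly factor CAF-1, by 0.97 (adjusted p = 0.00186) and Hat1, which acetylates new H4, by 0.72 (adjusted p = 0.00488). Srcap and Ep400, of the complexes that insert H2A.Z, were not called there (log2 −0.54, SE 0.62, and 0.11, SE 0.17). The difference of the autonomy effect between the stages was called lower in DP for 22 of the 34 S-phase genes. It was called lower for 7 of the 37 chaperone genes and 0 of the 25 processing genes, against 2.61% of all genes. In either direction, 8 of the 25 processing genes had an unadjusted p under 0.05. The share of all genes at that unadjusted threshold is not given here.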

How the data were processed

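Sorted thymocytes gave oligo-dT captured RNA and Pico Nextera libraries, per the labels' protocols. The submitters' processing notes name HISAT2, featureCounts, FastQC and DESeq2 and the builds GRCm38 and mm10, without versions. A and B mark libraries that share a number, and the labels do not say whether these share an animal. The deposited table holds raw counts per Ensembl gene. The authors' deposited DESeq2 tables, with log2 fold changes, standard errors, p-values and adjusted p-values, and with mean normalized counts (signal) and the Wald statistic (score) per the file headers, were used for symbols and to compare calls.

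Members were chosen by symbol and joined by Ensembl identifier. The members, lists and naming rule (10 variants and 6 cluster genes in every case, any member called, the 2 highest cluster genes of each family, and up to 3 called genes per list and direction) were chosen with earlier results of these data known. GENCODE M21 (GRCm38) gave exons, ends and stem-loops. Counts were tested in R 4.3.3 with edgeR 4.0.16 (glmQLFit and glmQLFTest, TMM, filterByExpr), adjusted by Benjamini-Hochberg over all genes tested, at 0.05. Autonomy was compared with turnover within DN3 and within DP, and the stages in a model of all 18 libraries. SE is the log2 change divided by the square root of F. DESeq2 1.42.0 and other settings served as alternatives. The fits were tested on simulated data.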

Additional observations from a re-analysis of the deposited data

Results flagged for a closer look

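Of 110 sets of a named gene and a group, 11 held a library far from the others, and chance flags about 1 in 20 such groups. In DN3 turnover, Hist1h1b reached 17.6 CPM in RP1140B, where the others had 7.16 to 7.38, and Hist1h2bk was at 1.03 CPM in RP1140A, where the others had 3.03 to 3.43. In DN3 autonomy, library RP1135 held 166 CPM of H2afx (others 109 to 121) and 0.496 CPM of H1fx (others at most 0.117). Library RP1134 of the same group held 5.198 CPM of Hist2h2be (others 0.587 to 1.36) and 16.04 CPM of Hist2h2ac (others 5.40 to 7.72). H1f0 was at 48.8 CPM in DN3 autonomy library RP1138, where the others had 6.54 to 15.98. In DP turnover, H2afy was at 364 CPM in RP1141A, where the others had 209 to 229. In DP autonomy, H2afv was at 693 CPM in RP1135 (others 403 to 479). H1fx, at 0.189 CPM in RP1133, and H2afy2, at 0.151 CPM in RP1138, were at 0 in the other DP autonomy libraries.

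For 7 members the effect of autonomy differed between the cell types in the edgeR fit of all 18 libraries. The difference, DP minus DN3 on the log2 scale, was −1.35 for H2afx, −1.25 for H2afz, −1.97 for Hist1h1b, −1.73 for Hist1h2ae and −2.47 for Hist2h2ac. It was 1.65 for Hist3h2a and 1.99 for Hist3h2ba.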

How the results depend on the processing

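Counts of called histone genes moved most with the test and with how libraries sharing a number were treated. DESeq2 called 9 in place of 3 higher in DN3 autonomy, 3 in place of 1 lower in DP autonomy, 13 in place of 6 higher in DP in turnover, and 12 in place of 5 with a lower autonomy effect in DP. Its counts over all genes rose as well, from 703 to 1101, 89 to 361, 1820 to 2046 and 301 to 477 in the same order. With A and B libraries summed, 1 was higher in DN3, 0 lower in DP, 2 higher and 0 lower in DP in turnover, and 0 differences were higher and 1, H2afz, lower. Over all genes the counts fell too, from 703 to 170, 89 to 8, 1820 to 1011, 2201 to 1159, 332 to 69 and 301 to 76 in the same order. With no filter on low counts, 0 were lower in DP in turnover and 3 differences were lower. Over all genes these counts went from 2201 to 2067 and from 301 to 266. With the replicate block (the number libraries share across cell types), 0 were lower in DP in turnover, 5 in place of 11 in autonomy, 1 difference was higher and 2 were lower. Over all genes the block took these counts from 2201 to 2002, 2907 to 2628, 332 to 143 and 301 to 145. The labels do not say whether libraries of the same number share an animal. Same-numbered libraries correlated at 0.00118 to 0.0521 in their deviations from the group means, and in 3 of 8 numbers the own number was highest. These correlations compare different cell types, so they cannot show whether the libraries are pairs. The cause of these shifts was not tested.

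Leaving out 1 library gave 1 to 3 higher and 2 to 4 lower in DN3, 0 to 1 lower in DP, 5 to 10 higher and 0 to 1 lower in DP in turnover, 4 to 7 higher and 8 to 12 lower in DP in autonomy, and 2 to 2 higher and 3 to 6 lower differences. Over all genes the calls moved too, in the same order. They ran from 328 to 763 and 483 to 1021 in DN3, and from 20 to 115 in DP. In turnover they ran from 1368 to 1980 and 1795 to 2279, and in autonomy from 2524 to 2885 and 2614 to 2947. The differences ran from 192 to 357 and 213 to 355. Over the named genes and all alternatives, 2311 values stayed on the same side of the threshold, 134 lost a call, 63 gained one and 0 called changes reversed. In DN3, H2afz, Hist3h2a and Hist3h2ba kept their calls under each of 14 alternatives. RLE factors moved no count by more than 1.5 times. Low counts limit most cluster genes, of which 8 of 67 averaged over 10 CPM.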
